A study of Mus musculus with 6 samples.

Results

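The DEAD and DEAH box RNA helicases of mouse haematopoietic stem cells were compared between CCR2+ and CCR2- cells. The members are genes whose symbol in the array annotation is Ddx or Dhx followed by a number and at most 1 letter, without Ddx58, Dhx58 and Ddx3y, and 48 of the 22180 genes measured met this rule. Each gene is represented by the probe set that lists it alone and has the highest mean over the 6 arrays. RefSeq names 50 genes under the rule, and the remaining 2, Ddx19a and Ddx49, had no probe set of their own. The samples were 3 pools of CCR2+ and 3 pools of CCR2- stem cells sorted from the marrow of C57BL/6J mice by flow cytometry, with 20 mice behind each pool and 1 array for each. CCR2 is the receptor for the chemokine CCL2 and is best known for guiding monocytes out of the marrow. The labels name no treatment, allele or age, nor the other surface markers of the sort.

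These helicases use ATP to pull short RNA duplexes apart or to strip proteins from RNA, and are named after the amino acids of a conserved ATP-binding motif. DEAD box members act locally on short stretches, while DEAH box members move along a strand, often under the control of partner proteins. Together they serve nearly every step in the life of an RNA, and cells that divide and differentiate in the marrow depend on them for splicing and for building ribosomes. Ddx5 and its paralogue Ddx17 work in splicing, in transcription as co-regulators and, with the enzyme Drosha, in the processing of microRNA precursors.

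All values below are log2 signals after RMA, and a difference is the CCR2+ mean minus the CCR2- mean with its standard error from limma, fitted across all genes. For further probe sets of a gene the standard error comes from a separate limma fit on all probe sets. Levels of different probe sets are not comparable. Arrays correlated at 0.960 to 0.977 between the groups across probe sets, and CCR2+ replicate 3 had the lowest correlations. The sort marker itself, Ccr2, was higher by 0.79 ± 0.24 with overlapping pools. The stem and progenitor markers Kit, Cd34 and Procr were measured in every pool, with means of 9.73, 8.82 and 7.02 in CCR2+ pools and 10.05, 9.65 and 7.40 in CCR2- pools. Across all genes, 0 passed an adjusted p of 0.05 in limma (2 without CCR2+ replicate 1), while 2716 had an unadjusted p under 0.05.

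Of the 48 helicase genes, 33 had a lower and 15 a higher mean in CCR2+ pools, with a median difference of -0.08. Over all genes 44.0% were lower and the median was 0.03, and among the 11090 genes above the median level, where 44 of the helicases lie, 56.1% of all genes and 68.2% of the helicases were lower. By limma, 0 members passed an adjusted p of 0.05. At an unadjusted p under 0.05, 3 members were lower (Ddx5, Dhx57 and Ddx60), against 6.61% of all genes, and 1 was higher (Ddx18), against 5.63%. As shares of the family these are 6.25% and 2.08%, the first near the background and the second below it. CCR2+ and CCR2- pools did not overlap for 6 lower members (12.5%), against 7.88% of all genes, and for 1 higher member (2.08%), against 10.8%. With only genes above the median level fitted, the same members were called. There 10.1% of all genes were lower and 3.62% higher at an unadjusted p under 0.05. The pools of 12.4% of these genes were lower without overlap, and those of 7.3% higher. Without CCR2+ replicate 2, 8 members were lower at an unadjusted p under 0.05, where the background was 7.11%, and 20 lower members did not overlap, where it was 13.7%. Without CCR2- replicate 2, lower members that did not overlap numbered 10, with a background of 12.2%. Of the 48 members, 8 were higher without overlap when CCR2+ replicate 3 was left out, near the background of 16.7%. This number was 3 without CCR2- replicate 3 (background 17.9%), and 2 without CCR2- replicate 1 (15.3%) or CCR2+ replicate 1 (16.2%). These counts of 3 and 2 were below the background. Higher members at an unadjusted p under 0.05 numbered 2 without CCR2+ replicate 1, with Dhx29 added, where the background was 4.68%. They also numbered 2 without CCR2+ replicate 3, with Ddx19b added, where it was 5.37%.

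**Figure D1:**
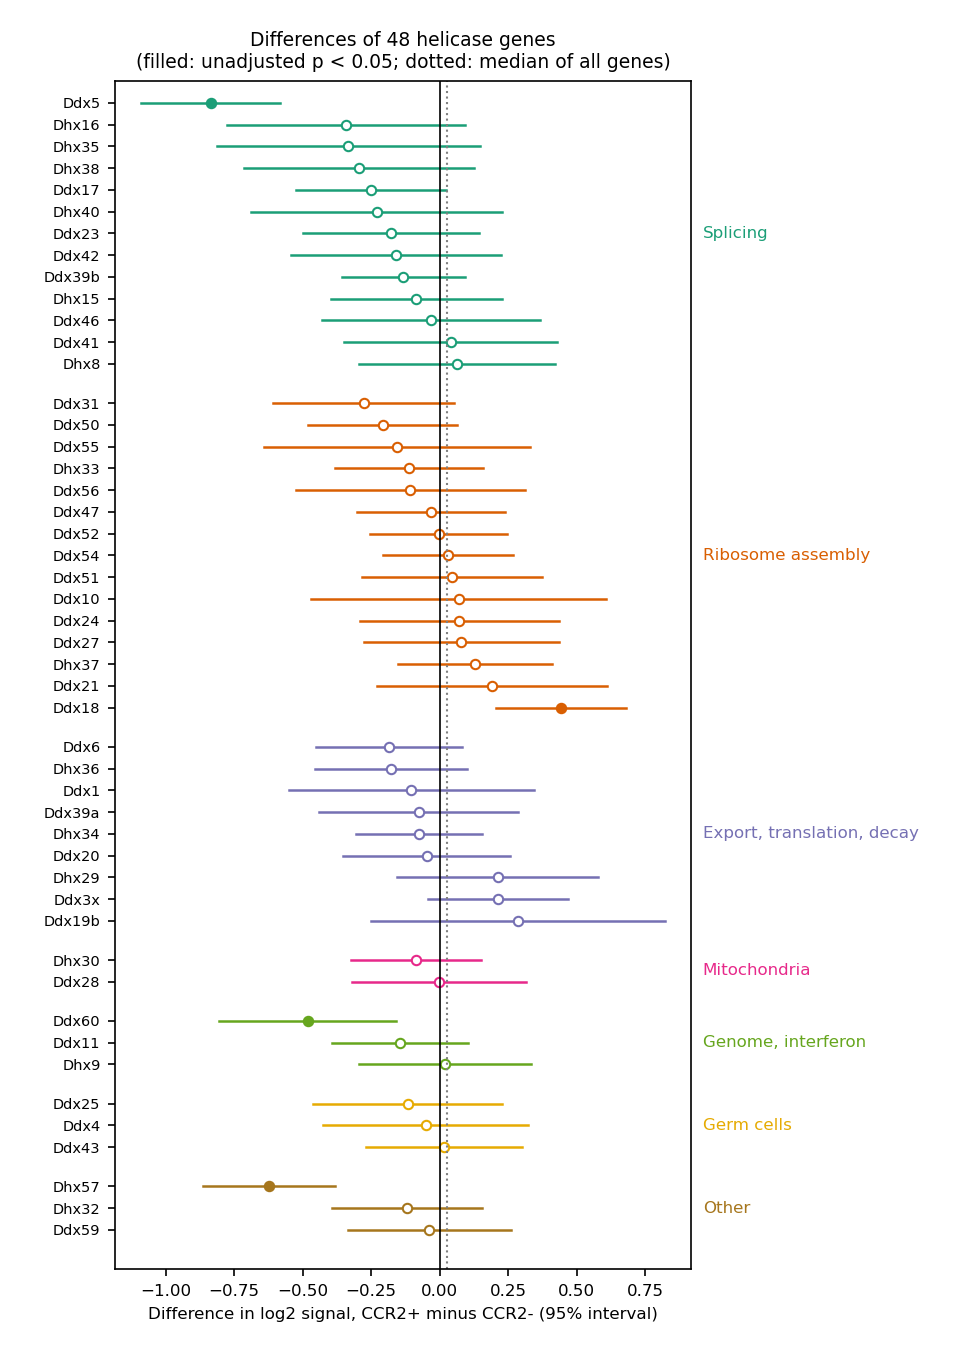
Difference in log2 signal (CCR2+ minus CCR2-, horizontal axis) of the 48 helicase genes with 95% limma intervals, grouped by role down the page. Filled points have an unadjusted p under 0.05, and the dotted line is the median of all genes at 0.03. Ddx5, Dhx57 and Ddx60 have intervals wholly below 0 and Ddx18 has one wholly above it.

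Splicing helicases were mostly lower, 11 of 13, against 44.0% of all genes and 56.1% of those above the median level. Their median difference was -0.18, and lay between -0.26 and -0.12 with 1 pool left out. Ddx5 differed most among them. Ddx5 had log2 signals of 9.24, 9.35 and 9.10 in the CCR2+ pools, against 10.10, 9.97 and 10.14 in the CCR2- pools. The highest CCR2+ pool lay well under the lowest CCR2- pool. Ddx5 averaged 9.23 ± 0.13 in CCR2+ and 10.07 ± 0.09 in CCR2- pools (SD, n = 3 each), a 1.78-fold lower level. The difference was -0.84 ± 0.11, at a limma unadjusted p of 4.8e-05. After Benjamini-Hochberg adjustment across all genes limma gave 0.177, above the threshold of 0.05. With each pool left out in turn it ranged from -0.90 to -0.77. Ddx5 was placed in view here because earlier results of these data had already shown its difference, so this value is a description rather than separate evidence.

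Ddx17 was lower too, by less. Its log2 signals were 9.64, 9.77 and 9.60 in the CCR2+ pools, against 9.98, 9.73 and 10.05 in the CCR2- pools. CCR2- replicate 2 lay below the highest CCR2+ pool, so the groups overlapped. The difference was -0.25 ± 0.12 (limma unadjusted p = 0.0671, adjusted p = 0.438), with a 95% interval of -0.52 to 0.02. The limma unadjusted p of Ddx17 was 0.046 with median centring, 0.023 with array weights and 0.019 without CCR2- replicate 2. Its adjusted p stayed above 0.05 in each. To compare the paralogues, the log2 signal of Ddx17 was subtracted from that of Ddx5 within each pool, and only the shift of this value between groups can be read. It was -0.39, -0.42 and -0.50 in the CCR2+ pools and 0.115, 0.24 and 0.08 in the CCR2- pools, which do not overlap. The shift was -0.58, given without a test because the difference of Ddx5 was known beforehand.

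**Figure D2:**
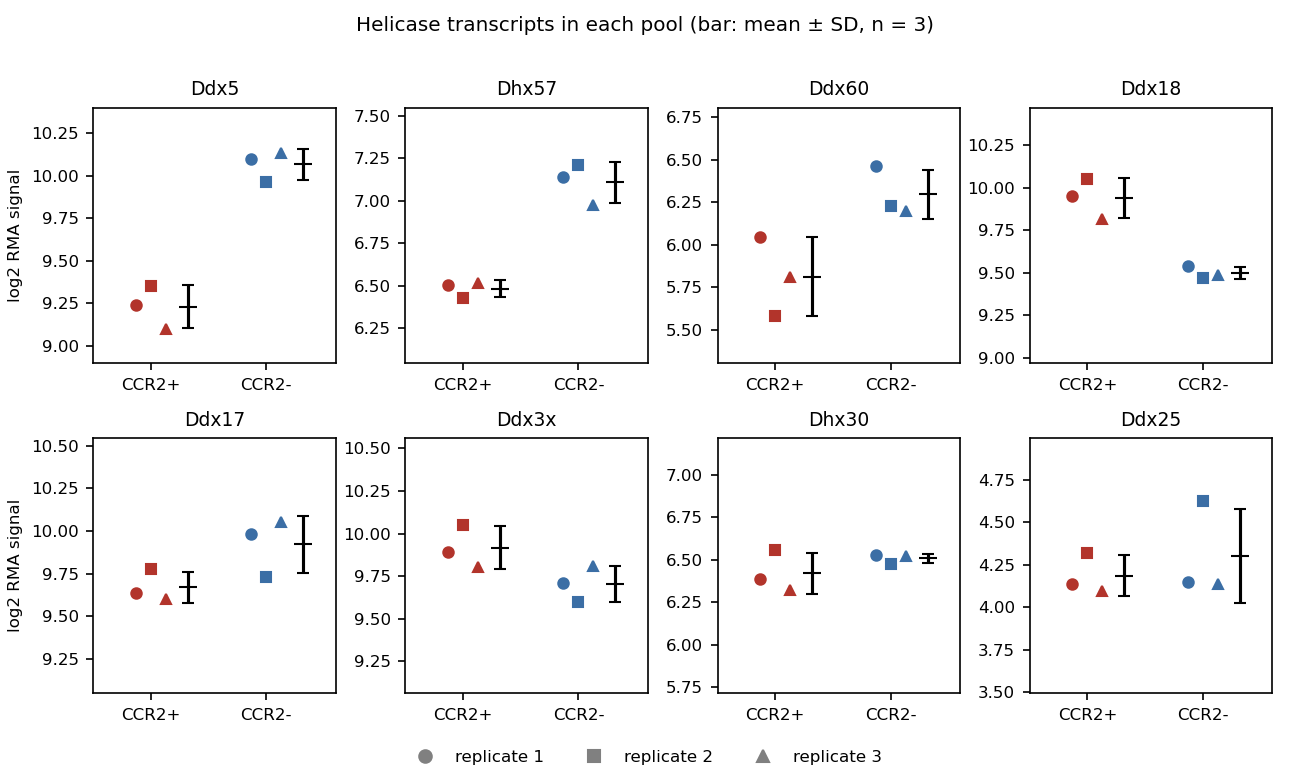
Log2 RMA signal (vertical axis) of 8 helicase genes in each pool, with CCR2+ pools left of CCR2- pools in every panel, 1 symbol per replicate, and the mean ± SD of 3 pools as a bar. Each panel spans the same range of log2 units. The groups are apart for Ddx5, Dhx57, Ddx60 and Ddx18 and overlap for Ddx17, Ddx3x, Dhx30 and Ddx25.

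The size of the Ddx5 difference depended on the probe set. A second probe set lists Ddx5 together with Mir3064, a microRNA gene that RefSeq places inside the span of Ddx5 on the same strand, and it therefore cannot be named for either. Its log2 signals were 10.31, 10.26 and 10.23 in the CCR2+ pools, against 10.61, 10.49 and 10.50 in the CCR2- pools. These pools do not overlap either, and the direction is that of the Ddx5 probe set. The difference was -0.27 ± 0.09 (limma on all probe sets, unadjusted p = 0.0214, adjusted p = 0.399), which is smaller than the -0.84 of the probe set that lists Ddx5 alone. In the same limma fit, the probe set of Ddx5 alone had an unadjusted p of 1.7e-04 and an adjusted p of 0.314. Which part of the transcript each probe set covers was not analysed here. The mature microRNAs of that gene are shown because they lie within the Ddx5 transcription unit, with the seed (bases 2 to 8) in capitals, as RefSeq gives them for GRCm38.p6 on the minus strand.
mmu-miR-3064-5p, chr11:106782736-106782757: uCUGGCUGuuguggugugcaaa
mmu-miR-3064-3p, chr11:106782695-106782716: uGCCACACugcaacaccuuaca
The arms have different seeds, and no level can be given for either from these arrays.

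RefSeq gives 3 transcription starts for Ddx5, and the 250 bases before each were searched on both strands for an E-box, a CCAAT box, a TATA box and the core of the interferon response element. Of the 48 members, 43 had a promoter entry, with 53 windows in all. Each Ddx5 start had a different motif, printed in capitals within 30 bases of GRCm38.p6 read along the minus strand. These stretches are printed to show how the starts of the most different member compare, and use of the starts was not measured.
Ddx5 start with a TATA box, chr11:106788507-106788536: ggcggtccagacTATAAAagcggctgccgg
Ddx5 start with an E-box, chr11:106788920-106788949: cctgggtccgatCACGTGatgaggccaagc
Ddx5 start with a CCAAT box on the other strand, chr11:106789186-106789215: gttaaaacggcttctcgacgctgATTGGac
The motif TATAAA was found in 3 of the 53 helicase windows (5.66%), against 12.4% of all 32851 promoter windows. Besides Ddx5 it stood before Ddx17 and before Ddx50, a member of ribosome assembly. The E-box CACGTG was found in 6 helicase windows (11.3%), against 6.02% of all windows. Of these 6 windows, 4 belong to splicing members (Ddx5, Ddx42, Dhx35 and Dhx40), which hold 15 of the 53 windows. The letters CCAAT were found in 22 (41.5%), against 33.8%. A match is a run of letters and not a measured binding site.

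The other splicing members had smaller or less even differences. Dhx16, which remodels the spliceosome before the first catalytic step, differed by -0.34 ± 0.19, Dhx35 by -0.33 ± 0.21 and Dhx38, which acts between the catalytic steps, by -0.29 ± 0.18. In each of these the CCR2+ pools were far apart. Dhx35, for instance, had 6.53, 7.12 and 6.30 in the CCR2+ pools, against 7.17, 6.74 and 7.04 in the CCR2- pools, and replicate 2 was the high one of the CCR2+ pools. Dhx16, Dhx35, Dhx38 and Dhx40 had an unadjusted p under 0.05 when CCR2+ replicate 2 was left out, and none of them did with all pools weighted alike and no block. With array weights Dhx16, Dhx35 and Dhx38 did too, and with the replicate block Dhx16 did. Dhx40 differed by -0.23 ± 0.20 and Ddx23, which helps exchange small nuclear RNAs at the start site of an intron, by -0.18 ± 0.14. Ddx39b, which loads export factors onto spliced RNA, differed by -0.13 ± 0.10 with pools that did not overlap, but its further probe sets gave -0.04 and 0.08 with overlapping pools. The differences of Dhx15, Ddx42, Ddx46, Ddx41 and Dhx8 were smaller than their standard errors. Ddx41 is known for mutations in human myeloid cancers.

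The helicases of ribosome assembly were evenly split, 7 lower and 8 higher, with a median of 0.03. The median lay between -0.06 (without CCR2+ replicate 2) and 0.06 (without CCR2- replicate 2) with 1 pool left out, on either side of 0. Ddx18, a nucleolar helicase needed for the large ribosomal subunit and for blood formation in zebrafish, was the most different of them. It had log2 signals of 9.95, 10.05 and 9.82 in the CCR2+ pools, against 9.54, 9.47 and 9.48 in the CCR2- pools. The 3 CCR2- pools lay close together and under every CCR2+ pool. Ddx18 averaged 9.94 ± 0.12 in CCR2+ and 9.50 ± 0.04 in CCR2- pools (SD, n = 3 each), 1.36-fold higher, and the difference of 0.44 ± 0.10 had a limma unadjusted p of 0.0025 and an adjusted p of 0.190. A second probe set of Ddx18 did not show this difference. It had 8.21, 8.31 and 7.63 in the CCR2+ pools and 8.12, 8.48 and 7.82 in the CCR2- pools, which overlap widely, a difference of -0.09 ± 0.24. The mean of both probe sets differed by 0.17 (limma unadjusted p = 0.267).

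Ddx21, which links RNA polymerase activity to ribosome production in the nucleolus, and its paralogue and chromosomal neighbour Ddx50 lay on opposite sides of 0. Ddx21 differed by 0.19 ± 0.18 and, on its second probe set, by 0.24 ± 0.16, while Ddx50 differed by -0.21 ± 0.12. The pools of both overlapped and neither had an unadjusted p under 0.05, and the difference between the paralogues was not tested. Ddx31 differed by -0.28 ± 0.14 and Dhx37, a helicase of the small subunit processome, by 0.13 ± 0.12. The limma unadjusted p of Ddx31 was 0.0898, and 0.0055 without CCR2+ replicate 2 and 0.023 with array weights. The remaining 10 members (Ddx10, Ddx24, Ddx27, Ddx47, Ddx51, Ddx52, Ddx54, Ddx55, Ddx56 and Dhx33) differed by less than their standard errors.

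**Figure D3:**
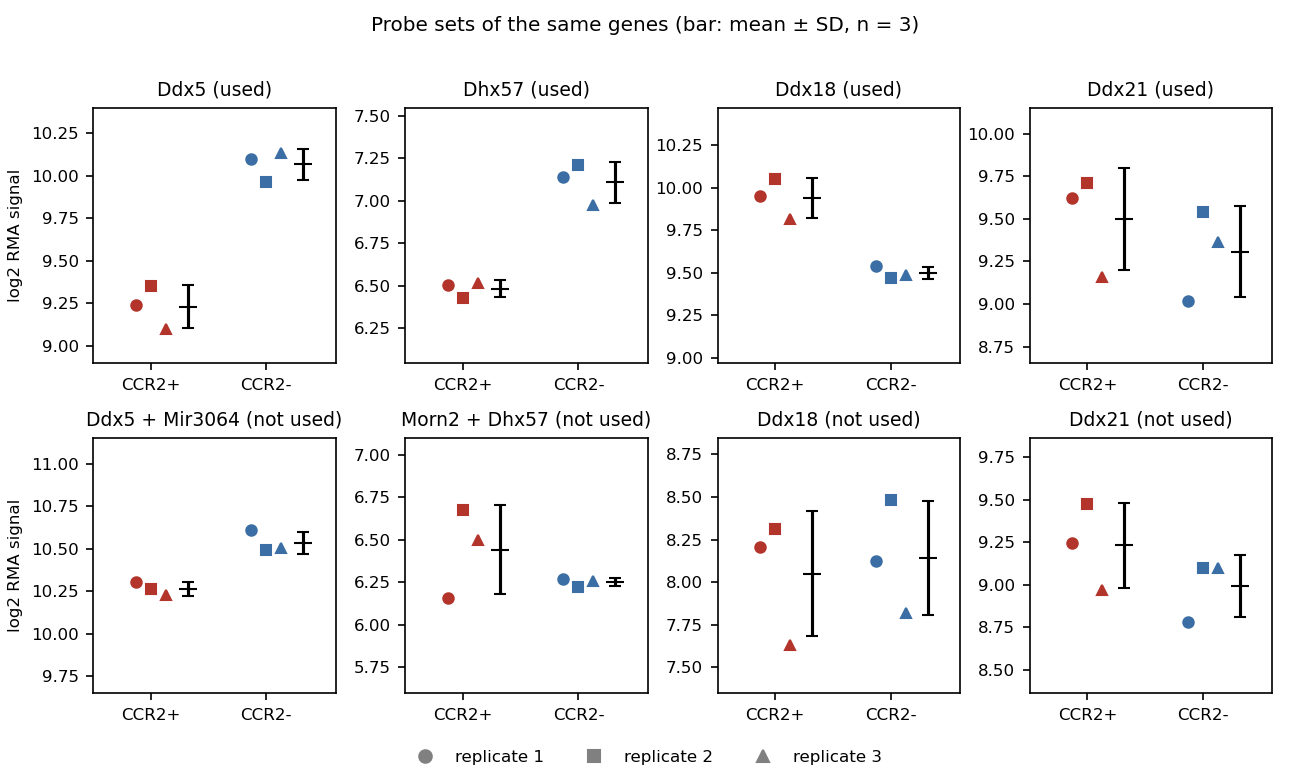
Log2 RMA signal (vertical axis) of 4 genes on the probe set used (top) and on a further probe set that lists them (bottom), with CCR2+ pools left of CCR2- pools and the mean ± SD of 3 pools as a bar. The groups are apart on both probe sets of Ddx5, at -0.84 and -0.27, and on a single probe set of Dhx57 and Ddx18.

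Among helicases of export, translation, storage and decay 6 of 9 were lower, beside 56.1% of all genes above the median level, with a median of -0.08. This median was 0.02 without CCR2+ replicate 3 and -0.01 without CCR2- replicate 2, so the group had no settled direction. Ddx3x, an X-linked helicase that helps ribosomes start on structured messages, had 9.89, 10.05 and 9.80 in the CCR2+ pools, against 9.71, 9.60 and 9.81 in the CCR2- pools. CCR2+ replicate 3 and CCR2- replicate 3 were level, and the difference was 0.21 ± 0.11 (limma unadjusted p = 0.0937). Dhx29, which assists scanning through structured leaders, differed by 0.21 ± 0.16 and Ddx19b, which releases messages at the nuclear pore, by 0.29 ± 0.23. Single pools moved both values: Dhx29 was at 0.04 without CCR2+ replicate 2 and 0.36 without CCR2+ replicate 1, and Ddx19b at 0.12 without CCR2+ replicate 2 and 0.57 without CCR2+ replicate 3. Ddx6, the helicase of processing bodies, where untranslated RNA is stored, had 8.62, 8.65 and 8.33 in the CCR2+ pools, against 8.73, 8.66 and 8.76 in the CCR2- pools. The groups did not overlap, by a margin under the spread of either, and the difference was -0.19 ± 0.12. Dhx36, which unwinds four-stranded G-rich RNA and is needed for blood formation in mice, had 8.32, 8.35 and 7.99 in the CCR2+ pools, against 8.41, 8.37 and 8.42 in the CCR2- pools. The same CCR2+ pool, replicate 3, was low for both genes, and Dhx36 differed by -0.18 ± 0.12. Ddx1, Ddx20, Ddx39a and Dhx34 differed by less than their standard errors.

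Dhx57 had the second largest difference of the family. It had 6.50, 6.43 and 6.52 in the CCR2+ pools, against 7.14, 7.21 and 6.98 in the CCR2- pools. The CCR2+ pools lay within a narrow band below every CCR2- pool. Dhx57 averaged 6.48 ± 0.05 in CCR2+ and 7.11 ± 0.12 in CCR2- pools (SD, n = 3 each), 1.54-fold lower, and the difference of -0.62 ± 0.11 had a limma unadjusted p of 2.75e-04 and an adjusted p of 0.177. A probe set that lists Dhx57 together with Morn2 differed in the other direction, by 0.19 ± 0.15 with overlapping pools (limma on all probe sets, unadjusted p = 0.235), and cannot be named for either gene. Dhx32 and Ddx59, for which no role is used here, differed by less than their standard errors.

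Ddx60, an interferon-induced helicase linked to the sensing of viral RNA, was lower. Its log2 signals were 6.05, 5.58 and 5.81 in the CCR2+ pools, against 6.46, 6.23 and 6.20 in the CCR2- pools. The highest CCR2+ pool lay just under the lowest CCR2- pools, and CCR2+ replicate 2 was the lowest of all. Ddx60 averaged 5.81 ± 0.23 in CCR2+ and 6.30 ± 0.14 in CCR2- pools (SD, n = 3 each), 1.40-fold lower, and the difference of -0.48 ± 0.14 had a limma unadjusted p of 0.0087 and an adjusted p of 0.259. The 250 bases before its RefSeq start are shown because they are the single helicase window, of 53, that holds the core of the interferon response element, which 2.98% of all windows hold. The core is the letters GAAA, any 2 bases, and the same letters again, and its matches overlap none of the other motifs in this window. The capitals mark this core at 2 places near the end and a CCAAT box near the beginning, read along the plus strand of GRCm38.p6.
Ddx60, chr8:61927837-61928086: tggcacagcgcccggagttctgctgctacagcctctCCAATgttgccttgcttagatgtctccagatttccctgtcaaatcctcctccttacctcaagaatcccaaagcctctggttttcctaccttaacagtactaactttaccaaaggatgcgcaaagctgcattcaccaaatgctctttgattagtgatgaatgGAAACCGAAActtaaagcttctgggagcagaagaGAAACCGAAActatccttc
Of its role group, Ddx11, a DNA helicase of sister chromatid cohesion, differed by -0.14 ± 0.11, and Dhx9, which resolves RNA-DNA hybrids, by less than its standard error.

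The mitochondrial and germ cell members differed little. Dhx30, a factor of mitochondrial ribosome assembly, had 6.38, 6.55 and 6.32 in the CCR2+ pools, against 6.53, 6.48 and 6.52 in the CCR2- pools, a difference of -0.09 ± 0.10 with overlapping pools. Ddx28, of the same process, differed by less than its standard error. Ddx25, a testis helicase, had 4.14, 4.32 and 4.09 in the CCR2+ pools, against 4.15, 4.62 and 4.14 in the CCR2- pools, a difference of -0.12 ± 0.15 that turned to 0.042 without CCR2- replicate 2. Ddx25 and Ddx43 lay below the 25th percentile of all genes' mean signals (4.66) and Ddx4, the germ cell helicase Vasa, and Ddx59 below the median (5.79).

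The family varied more among the CCR2+ than among the CCR2- pools. The median SD of a member was 0.21 between CCR2+ and 0.13 between CCR2- pools, while over all genes it was 0.15 and 0.13. Most members were high in CCR2+ replicate 2 and low in CCR2+ replicate 3. Among the CCR2+ pools, replicate 2 was the highest for 35 of the 48 members (72.9%), against 33.1% of all genes, and replicate 3 was the lowest for 29 (60.4%), against 34.4%. Part of this is shared by well-expressed genes, since among the 11090 genes above the median level the shares were 43.9% and 46.4%, beside 75% and 61.4% of the 44 helicases there. Ddx10, a nucleolar helicase, had 8.16 in CCR2+ replicate 2 and 7.14 in CCR2+ replicate 3, Ddx55 had 6.62 and 5.73, and Ddx1, a helicase of transfer RNA ligation, had 9.60 and 8.79 in the same pools. These gaps within a group exceeded the difference between the groups for each of the 3. Ddx56 ran the other way, with 7.13 in replicate 2 and 7.76 in replicate 3. The family mean was 7.48, 7.64 and 7.37 in the CCR2+ pools, against 7.55, 7.61 and 7.59 in the CCR2- pools, and the CCR2- values lay inside the range of the CCR2+ values. On the probe sets used, Ddx5, Dhx57, Ddx60, Ddx18, Ddx39b, Ddx6 and Dhx36 kept their groups apart across these pools. On further probe sets of Ddx18 and Ddx39b, and on the probe set that Dhx57 shares with Morn2, the groups overlapped.

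**Figure D4:**
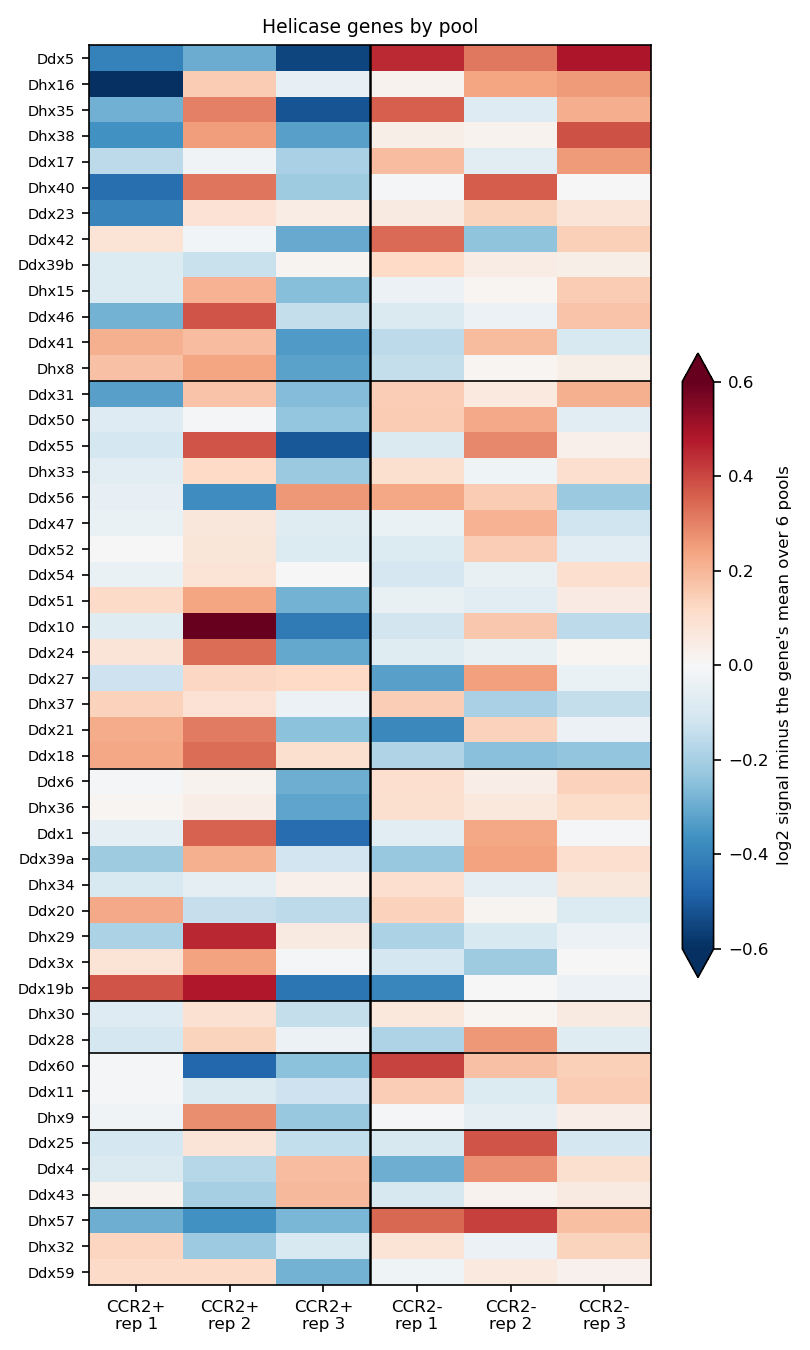
Log2 signal of each helicase gene minus its mean over the 6 pools, with pools in columns (CCR2+ left of the line, CCR2- right) and genes in rows, ordered by role and then by difference. The colour scale ends at -0.6 and 0.6. CCR2+ replicate 2 is red and CCR2+ replicate 3 blue in most rows, and the top row, Ddx5, is blue in the 3 CCR2+ pools alone.

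Markers of stem cells and of other cells differed in mean between the groups alongside these values. Over all genes 6.61% were lower and 5.63% higher at an unadjusted p under 0.05. By mean alone, 9758 of the 22180 genes were lower and 12422 higher, and 56.1% of the genes above the median level were lower. Of 9 measured stem and progenitor markers 9 were lower, with mean log2 signals of 7.41 to 7.70 in CCR2+ and 8.05 to 8.33 in CCR2- pools, and 8 had an unadjusted p under 0.05. Of 8 erythroid markers 8 were higher, at 9.11 to 9.61 against 8.48 to 8.93, 6 of them at an unadjusted p under 0.05. Monocyte markers (8 of 10 higher, 6.51 to 6.77 against 6.27 to 6.49, 3 at that p) and neutrophil markers (10 of 10 higher, 5.22 to 5.92 against 4.91 to 5.42, 2 at that p) also had higher means in CCR2+ pools. Lymphocyte markers stood at 5.29 to 5.37 against 5.22 to 5.33, with 6 of 7 higher and 0 at that p. No marker was at 0, as log2 array values have a floor above it. The erythroid, monocyte and neutrophil means were each highest in CCR2+ replicate 2. The part of these cells in the helicase differences was not tested, and in bulk pools fewer cells of a type and less RNA per cell cannot be told apart.

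Partner genes of the helicases were read from lists of their functions, and their counts at an unadjusted p under 0.05 stand beside the 6.61% of all genes that were lower at that p. Counts of lower genes stand beside 44.0% of all genes and 56.1% of those above the median level. Among 9 measured genes of microRNA processing, where Ddx5 and Ddx17 act, 7 were lower and 1 of them, Ago1, had an unadjusted p under 0.05. Ago1, an Argonaute protein that carries microRNAs, differed by -0.47 ± 0.17 (limma unadjusted p = 0.0219, adjusted p = 0.324), while Drosha differed by 0.03 ± 0.14. Ago1 was at -0.29 without CCR2+ replicate 3, and its unadjusted p exceeded 0.05 without that pool, CCR2- replicate 1 or CCR2- replicate 3. Among 8 partners of Ddx6 in messenger RNA storage and decay 6 were lower, 2 of them at an unadjusted p under 0.05. Dcp2, the enzyme that removes the cap from messages, had 7.45, 7.73 and 7.75 in the CCR2+ pools, against 8.48, 8.27 and 8.20 in the CCR2- pools. The groups lay apart, and Dcp2 was lower (difference -0.67 ± 0.13, limma unadjusted p = 6.3e-04, adjusted p = 0.177). Patl1, a decapping factor that binds Ddx6, differed by -0.38 ± 0.14 (limma unadjusted p = 0.0237). Patl1 was at -0.25 without CCR2+ replicate 1, and its unadjusted p exceeded 0.05 without that pool, CCR2- replicate 1 or CCR2- replicate 3, and with a second quantile normalization.

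G-patch proteins, the cofactors that switch on DEAH box helicases, were lower for 11 of 16 genes, with 2 at an unadjusted p under 0.05. Rbm5, a splicing regulator, differed by -0.40 ± 0.13 and Sugp2 by -0.40 ± 0.11 (limma adjusted p = 0.288 and 0.242). Without CCR2- replicate 1 the unadjusted p of Rbm5 was 0.0526 in limma. In 4 further lists 0 genes had an unadjusted p under 0.05. These were the DEAD and DEAH box helicases with another symbol, among them the Eif4a genes (4 of 6 lower), RNA helicases of neighbouring families (6 of 13 lower), export partners of Ddx19b and Ddx39b (7 of 11 lower) and partners of Ddx20 in the assembly of small nuclear ribonucleoproteins (1 of 6 lower). In none of these lists did a gene pass an adjusted p of 0.05.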

How the data were processed

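RNA from 5 ng per pool was amplified and biotin-labelled, per the labels' protocols. The authors deposited log2 values for 41345 probe sets on 6 arrays, made with RMA per the submitters' processing notes, with no version or settings named there. RMA equalises the arrays, so differences are relative to other genes. Genes were named from the platform annotation (23521 probe sets with 1 gene, 1814 with several, left unnamed). CCR2+ and CCR2- pools were compared in R 4.3.3 by limma 3.58.1 without covariates (eBayes after lmFit), with Benjamini-Hochberg adjustment over 22180 genes and a threshold of 0.05. The number of arrays limits the precision: the median standard error over all genes was 0.127. The design calls the pools biological replicates. The fit was tested on simulated data.

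Members and lists were chosen with earlier results of these data known. Signals were printed per pool for Ddx5, Ddx17, members with an unadjusted p under 0.05, the member with the smallest p in other role groups, and, picked after their values were seen, Dhx35, Ddx6, Dhx36, Dcp2 and the members with wide gaps between CCR2+ pools. Of the partner lists, genes with an unadjusted p under 0.05 were named, and Drosha in addition. Alternatives covered dim probe sets, normalization, the replicate number as a block, variance settings, array weights, probe sets and each pool left out. Whether probes of paralogues (Ddx39a and Ddx39b, Ddx19a and Ddx19b) cross-match was not tested. Promoter and microRNA sequences are RefSeq's, GRCm38.p6, matched by symbol.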

Additional observations from a re-analysis of the deposited data

How the results depend on the processing

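The 21 members whose difference exceeded its own standard error were picked by that size in these same data. They kept their direction under every alternative that used the same probe set or averaged all of a gene's. The filters of dim genes, the replicate block and the variance settings leave each difference unchanged and could not turn it. Averaging probe sets could change only the 3 members with several. Further probe sets alone gave -0.09 for Ddx18 and 0.08 for Ddx39b. Of the other 27 members, 22 turned in at least 1 alternative. On the probe set shared with Morn2, an alternative chosen after seeing the data, Dhx57 turned to 0.19. Ddx25 lay between -0.20 and 0.042 with 1 pool left out. No member passed an adjusted p of 0.05 under any alternative. The count lower at an unadjusted p under 0.05 was 3, 8 with array weights and 3 to 8 with 1 pool left out. The shares of all genes were 6.61%, 7.51% and 4.79% to 7.11%. The higher count was 1, 0 with probe sets averaged per gene and 1 to 2 with 1 pool left out. There the shares of all genes were 5.63%, 5.66% and 3.78% to 6.57%. At a threshold of 0.1, added later, 5 members were lower and 2 higher, and the share of all genes was not counted. Non-overlapping lower members numbered 6, 3 with cyclic loess and 6 to 20 with 1 pool left out. The shares of all genes were 7.88%, 8.66% and 11.4% to 13.7%. Non-overlapping higher members numbered 1, 2 with cyclic loess or a second quantile normalization, 0 with the mean of probe sets and 1 to 8 with 1 pool left out. Of all genes, 10.8% were higher without overlap, 8.77% with cyclic loess and 11.3% with the second quantile normalization. This share was 10.8% with the mean of probe sets and 15.3% to 19% with 1 pool left out. The family median stayed between -0.13 and -0.03, and 26 to 37 members were below 0. The correlations of deviations between pools with the same replicate number were 0.03, 0.09 and 0.04. CCR2+ replicates 1 and 2 correlated best with their own number, and CCR2+ replicate 3 with CCR2- replicate 1. These weak values cannot tell whether the replicate numbers pair the pools. Over all genes, 2935 had a limma unadjusted p under 0.05 with the replicate block, against 2716 without it. The smallest adjusted p was 0.062 with the block and 0.177 without it. With the replicate block 4 members were lower and 1 higher at an unadjusted p under 0.05, against 7.38% and 5.86% of all genes. The block leaves every difference unchanged in this balanced design, so the shift of Ddx5 against Ddx17 is -0.58 by construction. Signal over background is unknown here.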

Other observations

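The genes beside Ddx5 in the RefSeq order did not share the size of its difference. Cep95, on the opposite strand and overlapping Ddx5, had 6.81, 6.91 and 6.50 in the CCR2+ pools, against 6.84, 6.93 and 6.91 in the CCR2- pools, a difference of -0.16 ± 0.13 with overlapping pools. Polg2, beyond the other end, had 6.76, 6.73 and 6.41 in the CCR2+ pools, against 6.46, 6.36 and 6.70 in the CCR2- pools, a difference of 0.13 ± 0.14. Whether either differs from the change of Ddx5 was not tested. The probe set that lists Ddx49 together with Homer3 had means of 7.95 in CCR2+ and 7.98 in CCR2- pools, and the probe set that lists Ddx39a with Adgre5 had 9.52 and 9.52.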
